A study of Homo sapiens with 7 samples.

Results

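The regions described are sites of MYC binding that lie at the end of a single protein-coding gene in MYC-activated DLD-1 cells. They were chosen by a listed peak in both MYC libraries and by position. Peaks from the pair of MYC libraries were joined wherever they shared 1 bp or more. A joined region was kept when each library had a peak in it. Its centre also had to lie within 1000 bp of an end of the annotated span of exactly 1 protein-coding gene. This left 1380 regions out of 6313 MYC regions found in both libraries, which is 21.9% (exact 95% interval 20.9 to 22.9%, counting error only). The other 4933 regions lay at ends shared by several genes (376), inside a gene (2527), within 10 kb of a gene (579) or farther away (1451). The 1380 regions belonged to 1326 genes, which is 6.62% of the 20037 protein-coding genes of the annotation.

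Binding was measured by ChIP-seq, in which the DNA held by an immunoprecipitated protein is sequenced, and the cells were DLD-1, a long-established human colon adenocarcinoma line. All cells, controls included, had been infected with a retrovirus carrying MycER, a MYC protein that 4-hydroxytamoxifen (4-OHT) switches on. The groups used here are ATF4 in activated cells (2 libraries), ATF4 in control cells (2 libraries) and MYC in activated cells (2 libraries). Activation lasted 8 hr, with 4-OHT given at 500 nM per the labels, and the labels' protocol names vehicle as the alternative to 4-OHT. MYC was profiled in activated cells, so its regions have no control condition to be set against. The labels name no cells with inducer and without MycER, and give no means of telling MycER from the cells' own MYC in the immunoprecipitate. They do not say whether the replicates came from separate cultures, so any spread between them may be technical. The files hold no expression values, so the labelled cell type could not be checked against marker levels.

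MYC is a basic helix-loop-helix leucine zipper transcription factor that binds DNA together with its partner MAX. The pair recognises the E-box, whose canonical form is CACGTG, and tolerates near relatives such as CACGCG. MYC is known for raising the output of genes for ribosomes, protein synthesis, nucleotide supply and metabolism, and it binds mostly near transcription starts. In colorectal cancer MYC is a target of Wnt signalling.

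Promoters of strong regions are shown first, to let the motifs counted below be seen in place. These are RefSeq promoters (GRCh38.p14) from among the 15 strongest regions, 5 of the first 8 that the promoter table holds, shown because the region centre lies inside the promoter. Each is 300 bases long, from 250 bases before the annotated start to 50 after it, written 5′ to 3′ on the gene's strand. Capitals mark the canonical E-box CACGTG and the variant CACGCG, which reads CGCGTG on the other strand.
NAT10, chr11:34105379-34105678, plus strand: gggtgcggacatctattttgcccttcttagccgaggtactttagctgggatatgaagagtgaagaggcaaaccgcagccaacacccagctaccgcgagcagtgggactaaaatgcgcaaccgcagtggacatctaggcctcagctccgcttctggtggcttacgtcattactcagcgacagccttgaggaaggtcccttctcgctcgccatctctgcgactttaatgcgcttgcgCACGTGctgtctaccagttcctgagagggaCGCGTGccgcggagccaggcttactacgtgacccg
TBL1X, chrX:9463045-9463344, plus strand: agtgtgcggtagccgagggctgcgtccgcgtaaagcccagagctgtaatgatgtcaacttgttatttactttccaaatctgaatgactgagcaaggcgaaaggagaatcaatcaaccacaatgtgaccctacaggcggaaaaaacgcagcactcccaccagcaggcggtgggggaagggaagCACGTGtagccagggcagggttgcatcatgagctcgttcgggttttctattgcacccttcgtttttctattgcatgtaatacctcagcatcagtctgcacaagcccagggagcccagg
TMA16, chr4:163494440-163494739, plus strand: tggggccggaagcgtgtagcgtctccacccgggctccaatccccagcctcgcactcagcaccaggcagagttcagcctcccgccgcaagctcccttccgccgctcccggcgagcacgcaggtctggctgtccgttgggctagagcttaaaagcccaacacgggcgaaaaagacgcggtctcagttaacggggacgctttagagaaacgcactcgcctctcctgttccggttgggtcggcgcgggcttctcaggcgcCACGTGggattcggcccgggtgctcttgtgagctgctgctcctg
PEMT, chr17:17591659-17591958, minus strand: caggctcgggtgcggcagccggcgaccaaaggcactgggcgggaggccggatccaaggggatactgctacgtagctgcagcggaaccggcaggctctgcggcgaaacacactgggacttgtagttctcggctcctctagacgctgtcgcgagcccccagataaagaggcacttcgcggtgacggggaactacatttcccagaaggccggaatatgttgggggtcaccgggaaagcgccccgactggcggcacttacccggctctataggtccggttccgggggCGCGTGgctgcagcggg
CTU1, chr19:51108360-51108659, minus strand: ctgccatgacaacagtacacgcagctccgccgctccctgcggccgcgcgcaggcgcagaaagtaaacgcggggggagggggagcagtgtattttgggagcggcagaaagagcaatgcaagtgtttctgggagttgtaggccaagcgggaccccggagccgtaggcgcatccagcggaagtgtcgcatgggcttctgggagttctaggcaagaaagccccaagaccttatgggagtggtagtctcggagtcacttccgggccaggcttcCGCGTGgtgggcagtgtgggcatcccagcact
NAT10, TBL1X and TMA16 each held 1 CACGTG, whose midpoint lay 25.5 bp before the region centre at NAT10, 1.5 bp after it at TBL1X and 12.5 bp before it at TMA16, read along the gene. PEMT and CTU1 held the variant and no CACGTG, 79.5 bp after the centre at PEMT and 18.5 bp before it at CTU1. The 3 promoters not shown are those of SRSF1, which held the variant 3 times and no CACGTG, and of RACK1 and SPTY2D1, which held neither form.

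Further regions with CACGTG are shown aligned on their own centre, to let the place of the motif be seen. These are the strongest 9 besides TBL1X for which the RefSeq promoter covers 50 bases on both sides of the centre and which hold CACGTG within 25 bp of it. Each line gives 61 bases with the region centre at the middle base, on the gene's strand, and the E-box in capitals.
TNPO2, chr19:12723925-12723985, minus strand: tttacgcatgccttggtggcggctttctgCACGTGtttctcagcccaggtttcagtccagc
IPO7, chr11:9384482-9384542, plus strand: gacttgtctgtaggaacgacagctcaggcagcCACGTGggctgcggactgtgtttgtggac
CCDC86, chr11:60842075-60842135, plus strand: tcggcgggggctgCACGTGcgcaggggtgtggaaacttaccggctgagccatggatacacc
ATP6V0E2, chr7:149872847-149872907, plus strand: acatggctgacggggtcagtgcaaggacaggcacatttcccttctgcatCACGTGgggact
TMEM51, chr1:15152367-15152427, plus strand: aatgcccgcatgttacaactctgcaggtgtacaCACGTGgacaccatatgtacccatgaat
CGREF1, chr2:27119216-27119276, minus strand: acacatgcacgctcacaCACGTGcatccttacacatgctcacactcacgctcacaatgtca
GTF3C2, chr2:27356838-27356898, minus strand: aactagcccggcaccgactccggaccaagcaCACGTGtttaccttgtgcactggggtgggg
PWP1, chr12:107685658-107685718, plus strand: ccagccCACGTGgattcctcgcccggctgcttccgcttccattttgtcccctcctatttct
ZNF460, chr19:57279844-57279904, plus strand: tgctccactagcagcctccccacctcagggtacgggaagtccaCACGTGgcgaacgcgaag
TNPO2 and IPO7 encode nuclear import receptors, CCDC86 a nucleolar protein, GTF3C2 a subunit of the RNA polymerase III factor TFIIIC and PWP1 a chromatin protein of ribosomal DNA. Their MYC signal was 13.8 and 22.6 tags at TNPO2, 11.4 and 22.4 tags at IPO7, and 7.61 and 21.8 tags at GTF3C2 in replicates 1 and 2. The nearest CACGTG lay between 1.5 bp (TNPO2) and 21.5 bp (ATP6V0E2 and PWP1) from the centre in these lines.

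Signal is given as the authors' normalized tag count, the tags in a peak per 10 M tags of the library, called tags here. The MYC libraries held 21.0 M and 50.1 M tags and 8636 and 22532 peaks, so the same number of tags rests on fewer reads in replicate 1. Over the 1380 regions the lowest, median and highest values were 3.8, 6.18 and 27.1 tags in replicate 1 and 2.99, 9.78 and 40.3 tags in replicate 2. The weakest signal that could be listed at all was 3.8 tags in replicate 1 and 2.39 tags in replicate 2. Most of the regions therefore sat close to the lower limit of the first library, with a minority well above it. Across the regions the replicates had a Pearson r of 0.757 and a Spearman rho of 0.722 between their tags, given as a description because regions of a library share its depth and background. The peak centres of the 2 libraries lay a median of 30 bp apart.

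The strongest regions lay at genes of ribosome assembly, RNA processing and chromatin, and at others. NAT10, an RNA acetyltransferase that acts on ribosomal RNA, ranked first with 26.6 and 39.7 tags in replicates 1 and 2 (chromosome 11, 34105554 to 34105730), 13 bp into the gene. NOLC1, a nucleolar chaperone of small nucleolar ribonucleoproteins, had 25.7 and 40.3 tags (chromosome 10, 102152658 to 102152871). SRSF1, a splicing factor of the SR family, had 21.4 and 38.1 tags at a region 633 bp into the gene. All 3 stood more than 3-fold above the median region in both libraries.

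TBL1X, a subunit of the NCoR and SMRT corepressor complexes, had 23.3 and 34.1 tags at a region 67 bp before its start. HMGA2, an architectural chromatin protein, had the highest signal of all in replicate 1, with 27.1 tags, and 28.7 tags in replicate 2. FEZF1, a zinc finger factor of the developing forebrain, had 26.1 and 26.7 tags at a region 936 bp from the end where the gene stops. Of the 15 strongest, 12 lay at an annotated start and FEZF1 at the far end of its gene, while NOLC1 and HMGA2 had no promoter entry to place them by. PEMT, which methylates phosphatidylethanolamine, had 22.8 and 28.5 tags, and RACK1, a scaffold of the small ribosomal subunit, 24.2 and 26.5 tags. CTU1, an enzyme of transfer RNA thiolation, had 18.5 and 33.5 tags. Of PEMT, RACK1 and CTU1, RACK1 differed least between the libraries and CTU1 most.

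SPTY2D1, a histone chaperone, had 22.3 and 26.7 tags, and TMA16 had 16.6 and 34.9 tags. G6PC3, a glucose-6-phosphatase of many tissues, had 19.0 and 28.7 tags, and its region had the highest fold over the background library in replicate 1 among the 1380, 164.6, an authors' value. UBAP2 had 20.4 and 25.9 tags, and UTP25, a factor of small subunit processing, had 22.3 and 23.7 tags at a region whose centre lay 2 bp into the gene. ZNF628, a zinc finger gene, closed the group with 19.5 and 26.5 tags. Replicate 2 was above replicate 1 at all 15, and the order of the genes differed between the libraries.

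**Figure D1:**
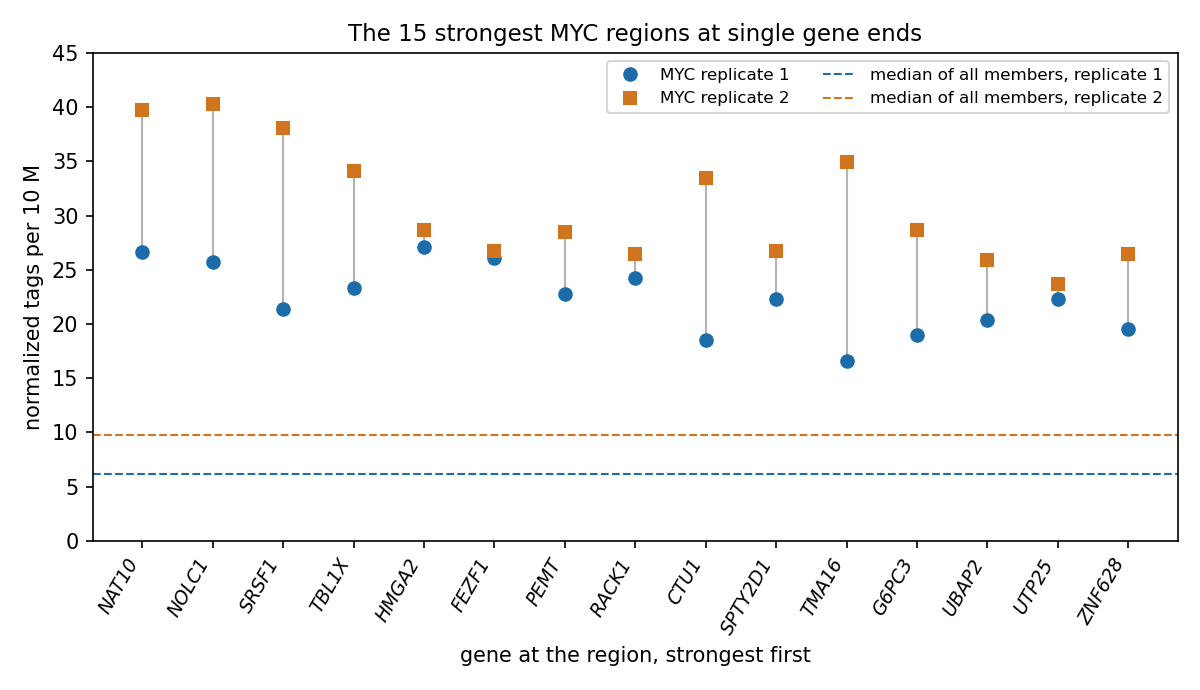
The 15 strongest MYC regions at single gene ends, ranked by the mean of log2(tags + 1) over the MYC libraries, with the normalized tags per 10 M on the vertical axis. Circles are replicate 1 and squares replicate 2, and dashed lines mark the medians of all 1380 regions, 6.18 tags in replicate 1 and 9.78 tags in replicate 2, which every point exceeds.

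The typical region was far weaker. B3GALNT2, a glycosyltransferase, GTF2A1, a subunit of the general factor TFIIA, and LOC728743 stood at the middle of the ranking with 7.13 tags in replicate 1 and 8.38 tags in replicate 2 each. The weakest were ZNF644 with 4.28 and 3.19 tags, HIKESHI, a nuclear import carrier of heat shock proteins, with 3.8 and 3.59 tags, and NEDD1, a centrosome protein, with 4.28 and 2.99 tags. At these 3 regions replicate 2 was the lower of the libraries, unlike at 87.9% of the 1380 regions. Of all 1380 regions, 2 were less than 2-fold over the background library in at least 1 of the MYC libraries.

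The ratio of the replicates varied by gene. The largest ratios of replicate 2 over replicate 1 belonged to UTP11 with 4.75 and 18.4 tags, NOB1 with 4.28 and 16.2 tags and HEATR1 with 5.23 and 19.0 tags. All of these genes encode factors of ribosome production: UTP11 and HEATR1 belong to the small subunit processome, and NOB1 is the nuclease that trims the end of 18S ribosomal RNA. The smallest ratios were at CLIC4 (5.23 tags in replicate 1), GRK3 and GPR108, the first a chloride channel protein, the next a receptor kinase and the last a Golgi membrane protein. At each of these 3 regions replicate 1 was the higher library.

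Just inside the limit of 1000 bp lay POMGNT1 (998 bp), VMP1 (998 bp) and BDKRB2 (997.5 bp), with 6.18, 6.65 and 6.65 tags in replicate 1. Just outside it lay MACROD1 (1000.5 bp; 7.61 and 9.18 tags), RPL7 (1004 bp; 16.2 and 22.2 tags) and GSTP1 (1006 bp; 6.18 and 9.58 tags). RPL7, a ribosomal protein gene, thus fell outside by a few bases with a signal well above the median region.

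The single gene ends were close to the other MYC regions in strength, and how their recurrence compared depended on the library it was read from. The median was 6.18 tags in replicate 1 for the single gene ends and also for all other regions. In replicate 2 it was 9.78 tags for the single gene ends and 8.78 tags for all other regions, with 9.98 tags at shared ends, 8.78 inside genes and 8.18 for regions farther away. On the log2(tags + 1) scale the median of the single gene ends was 0.14 higher than that of the other regions in replicate 2 and 0.00 in replicate 1. The mean of these 2 differences was 0.070 ± 0.099 (SD, n = 2 libraries), so the spread between the libraries exceeded it. No test was made, since regions are not replicates and an exact test over 2 libraries gives no p below 0.5.

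Of the regions of replicate 1 at single gene ends, 82.4% also had a peak in replicate 2. The share was 86.6% at shared gene ends, 75% within 10 kb of a gene, 72.4% inside genes and 64.1% farther away. Read from replicate 2, which listed far more peaks, the classes hardly differed: 27.5% of its regions at single gene ends had a peak in replicate 1, against 30.7% at shared ends, 29.4% within 10 kb of a gene, 28.5% inside genes and 26.7% farther away. The median log2 ratio of replicate 2 over replicate 1, over regions found in both, was ordered as the shares of replicate 1 were for these 4 classes, with 0.57 at single gene ends, 0.64 at shared ends, 0.46 inside genes and 0.38 farther away. This order also held among regions of like level in replicate 1. Among regions under 5 tags there, the median ratio was 0.52 at 311 single gene ends and 0.29 at 339 regions farther away. Among those of at least 10 tags it was 0.55 at 190 single gene ends and 0.42 at 179 regions farther away. All classes were read from the same pair of libraries, so the difference in depth is common to them.

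**Figure D2:**
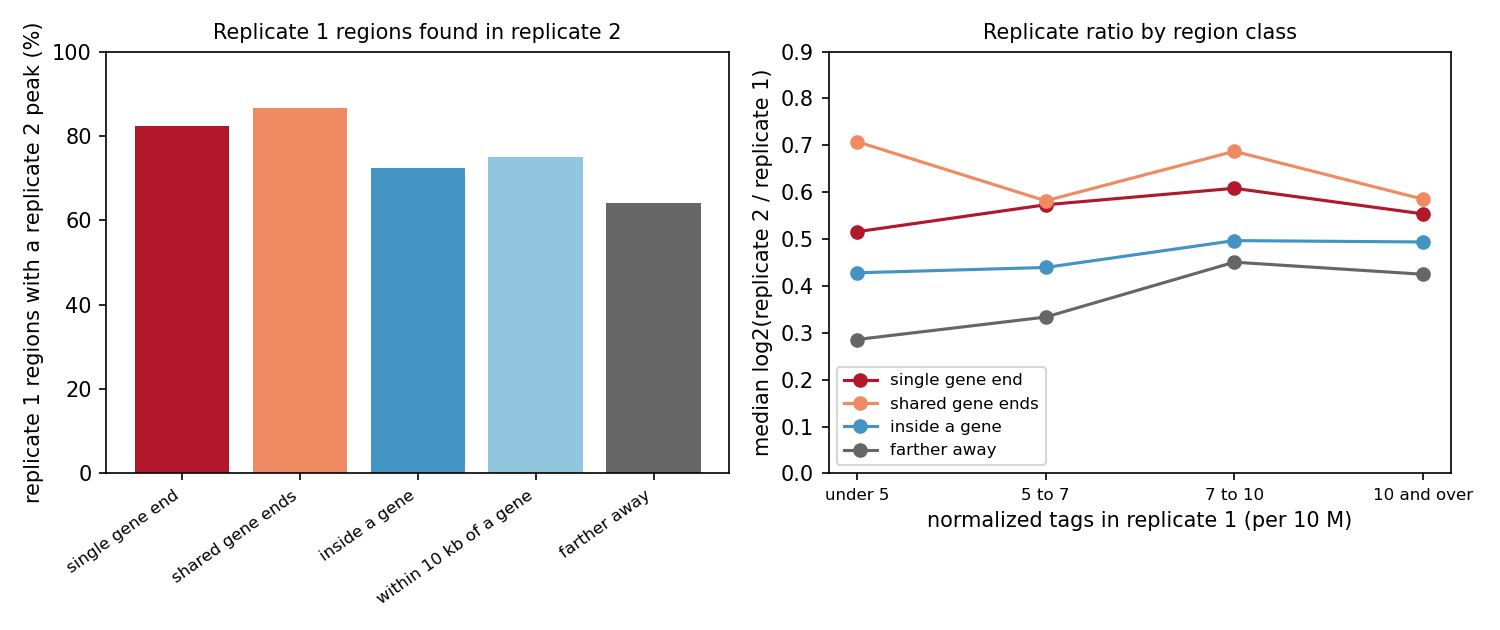
Left, bars give the share of replicate 1 regions (in percent) with a replicate 2 peak, by region class; single gene ends reach 82.4% and regions farther away 64.1%. Right, points give the median log2 ratio of replicate 2 over replicate 1 tags within 4 ranges of replicate 1 tags for 4 classes; both classes at gene ends lie above the other 2 in every range.

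Where an annotated start was known, most regions lay at it. The RefSeq promoter table held the gene of 1124 of the regions. Of these, 1010 had their centre within 1000 bp of an annotated start, and 114 lay farther from every listed start of their gene. The remaining 256 regions had no promoter entry and were left out of the counts on starts and motifs. The centres were split nearly evenly, with 496 before the start and 514 after it. Their median distance from the start was 314.2 bp, 190 (18.8%) lay within 100 bp and 698 (69.1%) within 500 bp.

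The regions formed a pair of main humps rather than a single one. The fullest bins of 100 bp were those at 0 to 100 bp into the gene, with 121 regions, 100 to 200 bp into the gene, with 94, and 200 to 300 bp and 300 to 400 bp before the start, with 93 and 86. The bins in between, up to 200 bp before the start, held 69 regions each, and the bin at 200 to 300 bp into the gene held 35. Farther in there was a lower shoulder. The bins from 500 to 800 bp into the gene held 51, 46 and 42 regions, against 44, 30 and 23 at the same distances before the start. Signal in replicate 2 was higher near the start, with a median of 11.2 tags within 100 bp, 9.98 at 100 to 250 bp, 9.38 at 250 to 500 bp and 8.78 beyond. In replicate 1 the same medians were 6.18, 6.18, 5.70 and 6.18 tags, so the gradient was seen in 1 library.

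**Figure D3:**
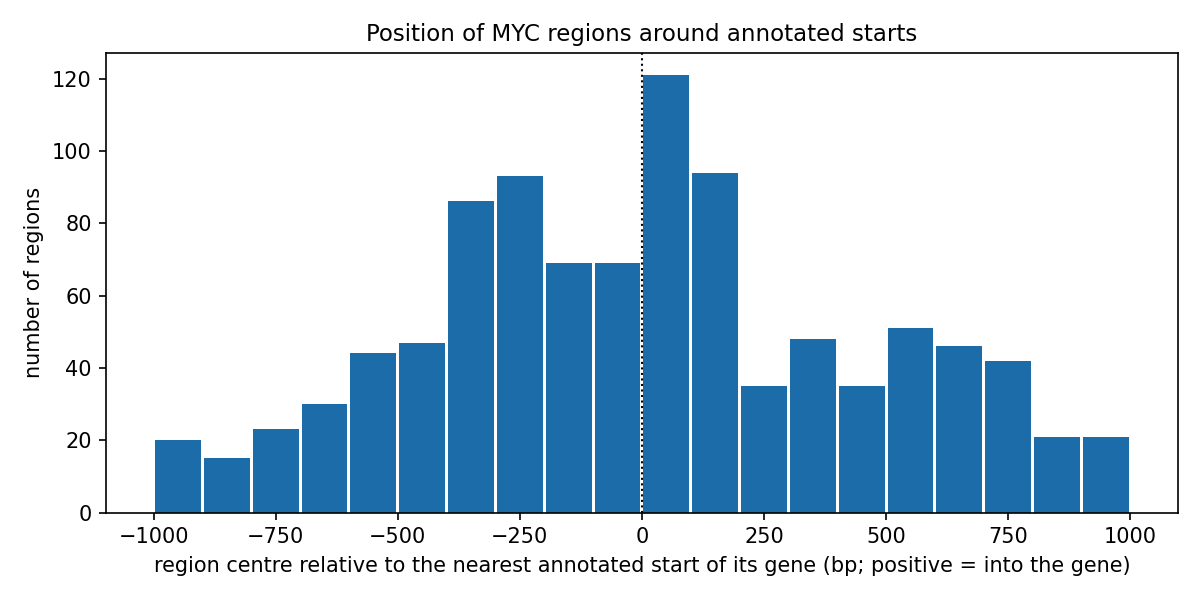
Histogram of the 1010 region centres around the nearest annotated start of their gene, in bins of 100 bp; the horizontal axis is the signed distance in bp, positive into the gene, and the vertical axis the number of regions. The bins at 0 to 200 bp hold 121 and 94 regions, and those at 400 to 200 bp before the start hold 86 and 93.

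The 114 regions farther than 1000 bp from a listed start had a median of 6.18 and 10.3 tags. This was close to the 6.18 and 9.58 tags of those at a start. The strongest after FEZF1 were at TRIOBP, an actin-binding protein gene (14.3 and 22.8 tags, 31091 bp from its nearest annotated start), PHB2, which encodes a mitochondrial inner membrane scaffold (14.3 and 21.0 tags), and SLC67A1 (12.4 and 23.4 tags). IFITM5, an interferon-induced transmembrane family member of bone, had 14.3 and 20.0 tags. PHB2's region lay 24 bp from the end of its span, and 5361 bp from its annotated start. These positions rest on the starts in the promoter table, which need not list every start that a gene uses.

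A second region at the same gene was uncommon. Of the 1326 genes 1273 had 1 region, 52 had 2 and 1 had 3, and in 44 of the 53 with several the regions lay at the same end. The gene with 3 was EIF4E, which encodes the protein that binds the messenger RNA cap. Its regions had 9.03 and 14.6 tags 882.5 bp into the gene, 6.18 and 18.2 tags 283.5 bp into it, and 5.70 and 9.78 tags 250.5 bp before its start. The middle region was the strongest of the 3 in replicate 2 but not in replicate 1. Strong pairs were found at FARSB, a subunit of phenylalanyl-tRNA synthetase, whose stronger region had 13.8 and 29.7 tags, and at DDX21, a nucleolar RNA helicase, with 14.3 and 24.5 tags. Of the 9 genes with regions at both ends, IFITM2 and MCIDAS are examples, with regions 1311.5 bp and 7336 bp apart.

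The promoters of genes with a region at the start held E-boxes more often than promoters in general. CACGTG, searched on both strands, was found in the nearest promoter of 171 of 1010 regions (16.9%, exact 95% interval 14.7 to 19.4%). Of all 22199 RefSeq promoters of protein-coding genes 1851 held it (8.34%). The 1010 regions belonged to 976 genes, so a promoter may be counted more than once, and the interval takes regions as separate. The 22199 promoters belonged to 15843 genes. The variant CACGCG was found in 23.6% of the region promoters and 14.3% of all promoters, and CATGCG in 13.6% and 7.91%. CATGTG did not follow this, with 8.32% of the region promoters and 8.93% of all, nor did the general form CANNTG, which contains CACGTG and CATGTG, with 63.1% and 65.1%. The excess at these genes was thus seen for 3 of the 4 exact E-box forms.

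Motifs of other promoter factors were also unevenly spread. The ETS core CCGGAAG was in 24.3% of the region promoters and 12.8% of all promoters, the YY1 core AAGATGGC in 7.43% and 3.53%, and the NRF1 core CGCATGCG, which contains CATGCG, in 5.25% and 2.49%. The GC box GGGCGG was in 64.7% and 56.3%, and CCAAT in 34.9% and 34.7%. The composite TGATGNAA, known as a site of ATF4 with a CEBP partner, was in 1.39% of the region promoters and 2.69% of all. Base composition differed a little in the same comparison, with a median of 64.0% GC in the region promoters and 62.3% in all, and its part in the motif shares was not tested.

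Close to the region centre, where the promoter sequence reached far enough to be read, the canonical E-box was far more frequent than in promoters at large. For 138 regions the promoter covered 50 bases on both sides of the centre. All of these centres lay within 200 bp before the start, so regions centred inside the gene are not covered. CACGTG was within the 101 bases around the centre in 33 of the 138 (23.9%, interval 17.1 to 31.9%). In all promoters, read at the same distances from the start, the share was 3.11%. CATGTG was in 13.0% of these windows against 3.16% of all promoters, and CACGCG in 13.0% against 5.32%. The GC box and CCAAT went the other way, with 10.9% against 31.8% and 5.07% against 15.8%. The AP-1 site TGANTCA was in 7.25% against 2.15%, or 10 windows. The windows had a median of 58.4% GC, and promoters at the same places a mean of medians of 62.7%.

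Distances were also read for each motif. Among 253 regions centred inside their promoter, 76 had a CACGTG there, at a median of 24.0 bp from the centre, and 38 of these 76 were within 25 bp. CATGTG had a median distance of 27.5 bp (39 regions), CACGCG of 49.5 bp (69 regions) and CATGCG of 52.5 bp (44 regions, 22.7% within 25 bp). The AP-1 site, in 18 regions, was at 40.5 bp, nearer than these last E-box variants. The ETS core, the GC box and CCAAT lay at medians of 109, 108 and 114 bp. The distances that evenly spread motifs would give were not computed. Within the 101 bases around the centre the ETS core was in 7.97% of windows against 4.8% of promoters at the same places.

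**Figure D4:**
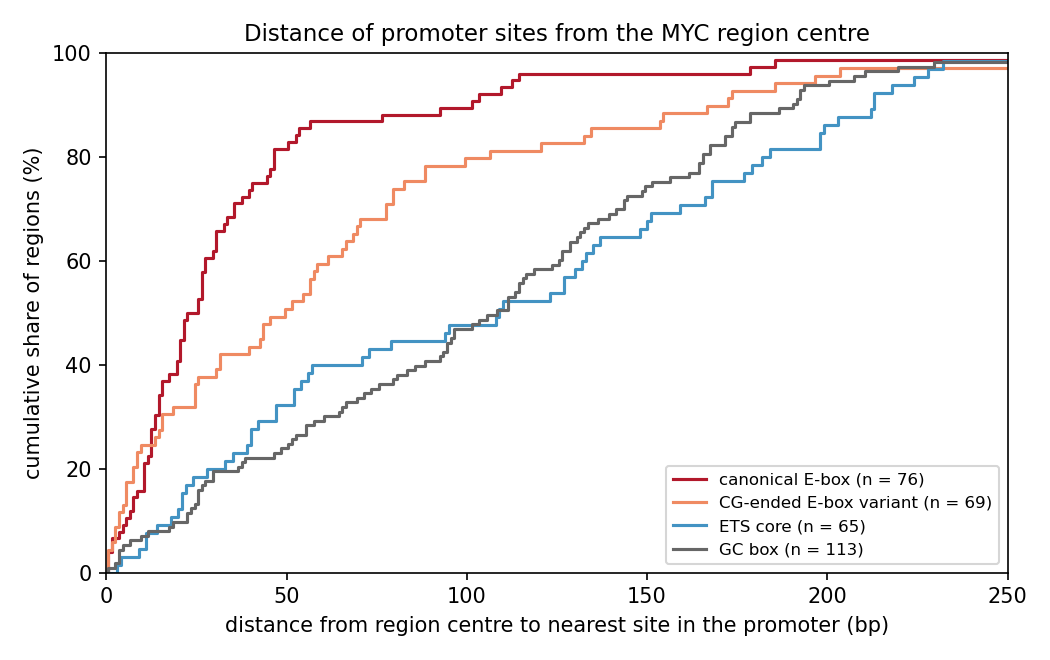
Cumulative share (percent) of regions by the distance in bp from the region centre to the nearest site in the promoter, for the canonical E-box (76 regions), its CG-ended variant (69), the ETS core (65) and the GC box (113). The canonical E-box rises first, with a median of 24.0 bp, and the ETS core and GC box reach theirs at 109 and 108 bp.

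Among these 138 regions, those with a central CACGTG had higher median tags than those without, by little in replicate 1. Among the 35 strongest of the 138 it was found in 13 (37.1%, interval 21.5 to 55.1%), among the next groups by rank in 8 of 35 and 8 of 34, and among the 34 weakest in 4 (11.8%, interval 3.3 to 27.5%). The 33 regions with CACGTG had a median of 6.65 and 13.0 tags, the 15 with CACGCG alone 6.18 and 11.2 tags, and the 90 with neither 5.94 and 9.78 tags. The intervals of the strongest and weakest groups overlap, and no test was made over regions.

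The genes were read against 25 gene lists, of which 21 are pathways and 4 are cell type markers. Across the pathways, 166 of 688 listed genes (24.1%) had a region at a single gene end, against 6.62% of all protein-coding genes. Counting shared ends as well, 10.1% of all protein-coding genes had a MYC region at an end. The lists gained unevenly from shared ends. Mitochondrial ribosomal proteins went from 21.8% to 41.8%, aminoacyl-tRNA synthetases from 21.6% to 27.0%, and glycolysis and lactate genes stayed at 33.3%. The order of the lists given below is that for single ends. The other 1160 genes with a single-end region were in no pathway list. The shares describe lists of known genes that were chosen with earlier results of these data known. They are thus no independent evidence of an excess, and no list was tested.

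Nucleolar factors and cytosolic ribosomal proteins had the highest shares. Of 40 nucleolar factors 19 had a region (47.5%, interval 31.5 to 63.9%), with a median of 9.98 and 17.2 tags, well above the 6.18 and 9.78 tags of all regions. After NAT10 and NOLC1 came DDX21 and WDR43, a small subunit factor with 15.2 and 19.2 tags. RRS1, needed for the large subunit, had 12.4 and 21.8 tags. NOP58, a core protein of box C/D small nucleolar ribonucleoproteins, had 11.9 and 20.0 tags, and NCL, the abundant nucleolar protein nucleolin, 8.08 and 17.6 tags. The weakest of the 19 was NVL, a chaperone of large subunit assembly, with 5.70 and 4.79 tags.

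Of 72 cytosolic ribosomal protein genes 35 had a region (48.6%, interval 36.7 to 60.7%), with a median of 8.08 and 14.2 tags. RPL32 led with 18.5 and 21.4 tags, followed by RPL15 with 14.3 and 18.2 tags, RPL37A with 13.3 and 17.2 tags and RPS6 with 11.4 and 19.0 tags. The last of these encodes the subunit protein that S6 kinase phosphorylates. At the low end were RPL10 with 4.28 and 5.99 tags and RPS20 with 5.23 and 5.19 tags. Of the 35 genes 15 contain a small nucleolar RNA, as do 7 of the 19 nucleolar genes. Mitochondrial ribosomal proteins had a region at 12 of 55 genes (21.8%), led by MRPL3 with 10.5 and 27.9 tags. RNA polymerases I and III had one at 5 of 19 genes (26.3%), with POLR3A the strongest (9.51 and 9.78 tags) and RRN3, the initiation factor of polymerase I, the weakest (5.23 and 6.19 tags).

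Translation and chaperone genes had smaller shares than cytosolic ribosomal protein genes. Of 42 initiation and elongation factors 9 had a region (21.4%), among them EIF4B, a helper of the cap-bound helicase, with 18.1 and 28.5 tags, and EIF3E and EIF3D, subunits of the eIF3 scaffold, with 14.7 and 17.2 and with 7.13 and 20.8 tags. Of 37 aminoacyl-tRNA synthetases 8 had one (21.6%), FARSB first and WARS2, the mitochondrial tryptophan enzyme, second with 12.4 and 18.8 tags. Of 24 chaperones 8 had one (33.3%), including CCT3 with 14.3 and 20.0 tags and CCT2 with 10.9 and 18.0 tags, both subunits of the ring that folds actin and tubulin. HSPA8, the constitutive heat shock cognate, had 12.4 and 18.6 tags.

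Metabolic lists divided. Glycolysis and lactate genes had a region at 8 of 24 (33.3%), with LDHB and ENO1 the strongest at 13.8 and 31.7 and at 12.4 and 23.9 tags. GAPDH, a dehydrogenase of glycolysis, and LDHA, a lactate dehydrogenase, had 5.70 and 18.0 and 4.75 and 13.8 tags, with replicate 2 far above replicate 1. Mitochondrial import and dynamics had one at 9 of 24 (37.5%), with PHB2 and TIMM44, a subunit of the import motor, at 9.98 and 19.8 tags. The respiratory chain and ATP synthase had one at 2 of 55 (3.64%, interval 0.443 to 12.5%): UQCRC2 of complex III with 9.03 and 8.38 tags and ATP5MC3 with 4.75 and 4.79 tags. With shared ends included this list had 7 of 55 (12.7%), against the 10.1% of all genes. Serine, one-carbon and polyamine metabolism had a region at 6 of 19 (31.6%), led by MTHFD1, a folate enzyme, with 10.9 and 16.8 tags. Nucleotide synthesis had one at 4 of 27 (14.8%), led by GART of the purine pathway with 12.4 and 15.4 tags. ADSL, also of the purine pathway, had 9.51 and 18.2 tags.

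Other nuclear and turnover genes were mixed. SR and hnRNP splicing proteins had a region at 6 of 32 genes (18.8%) and the highest median of the pathway lists, 12.1 and 17.7 tags, with SRSF7 (16.6 and 27.1 tags) and HNRNPD (14.3 and 19.8 tags) behind SRSF1. The proteasome had one at 6 of 35 (17.1%), led by PSME3, the nuclear activator, with 18.5 and 24.7 tags. Cell cycle and replication genes had one at 5 of 39 (12.8%), among them PLK1, the mitotic kinase, with 6.65 and 11.8 tags and CDK4, the partner of the cyclin D proteins, with 7.13 and 9.38 tags. MCM3, a subunit of the replicative helicase, had 5.70 and 11.4 tags. The MYC network itself had 3 of 20 (15%): MXD1, an antagonist that also pairs with MAX, had 9.51 and 15.8 tags, MAX 6.65 and 10.8 tags, and FBXW7, the ligase subunit that targets MYC for degradation, 5.23 and 5.99 tags.

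Circadian E-box genes had a region at 5 of 18 (27.8%), led by NR1D1, the repressor REV-ERB alpha, with 8.56 and 23 tags, and followed by BHLHE40 with 7.13 and 11.6 tags. CRY1, a repressor of the clock, had 5.70 and 4.59 tags. Wnt targets had one at 3 of 20 (15%), AXIN2, MYB and ZNRF3, of which AXIN2, the feedback scaffold, had 4.75 and 15.2 tags. Integrated stress response genes had one at 7 of 27 (25.9%) and amino acid carriers at 5 of 24 (20.8%). EIF4EBP1, the translation repressor 4E-BP1, was the strongest of the stress genes with 13.8 and 30.3 tags, and SLC3A2, the heavy chain of several carriers, the strongest carrier gene with 20.0 and 25.1 tags, 11.5 bp into the gene.

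Of the markers of other cell types, 2 of 60 genes had a region at a single end: CD8A of T cells with 13.3 and 24.1 tags and RBFOX3 of neurons with 4.75 and 6.39 tags. Of 20 fibroblast and endothelial markers 0 had one (exact 95% interval up to 16.8%). Of 20 colon epithelium markers 2 had one (10%, interval 1.23 to 31.7%). These were TFF3, a goblet cell peptide, with 12.4 and 18.2 tags and CDX2, the intestinal homeobox factor, with 5.23 and 4.99 tags. Blood cell and neuron markers had 1 of 20 each (5%, interval 0.127 to 24.9%). The interval of every marker list contained the 6.62% of all protein-coding genes.

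**Figure D5:**
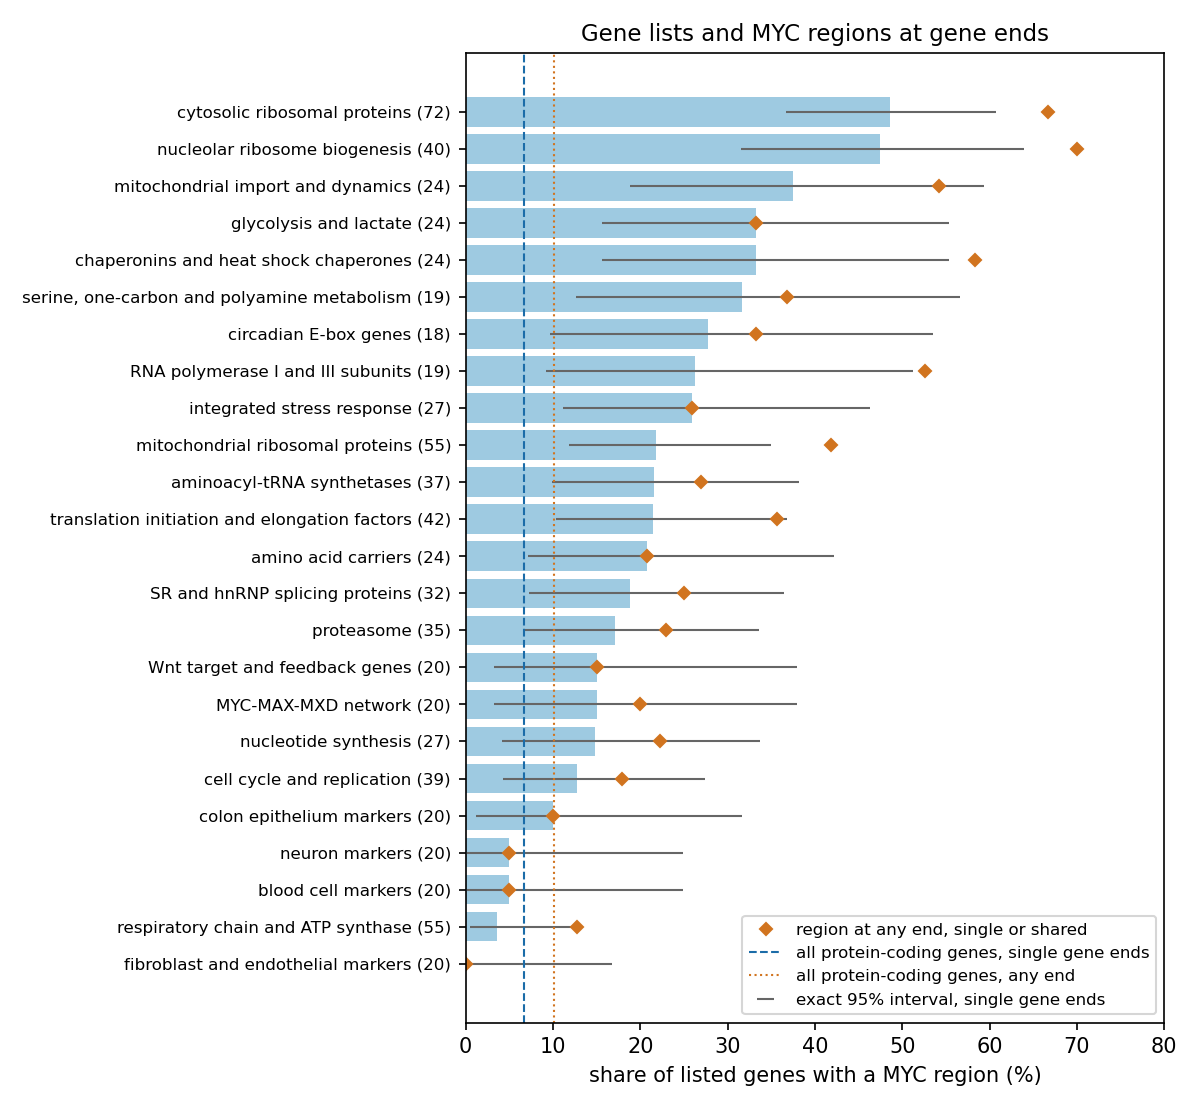
Share (percent) of each gene list with a MYC region at a single gene end (bars, with exact 95% intervals) and at any end (diamonds); the number of genes in a list stands in brackets. Dashed and dotted lines mark all protein-coding genes at 6.62% and 10.1%. Cytosolic ribosomal protein and nucleolar genes reach 48.6% and 47.5%, and the respiratory chain list 3.64%.

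Among features of the genes themselves, hosts of small nucleolar RNAs were frequent. They made up 68 of the 1326 genes (5.13%, interval 4.00 to 6.46%), 31 of 702 genes with MYC regions at shared ends alone (4.42%) and 526 of all 20037 genes (2.63%). For microRNA hosts the shares were 6.41%, 3.99% and 5.32%. The strongest hosts were RACK1, UBAP2, RPL32 and RBM39, the last a splicing cofactor with 15.2 and 20.6 tags. Genes with a single-end region had a median span of 28.4 kb, those with regions at shared ends alone 22.3 kb and all protein-coding genes 24.1 kb. An end of a long noncoding RNA gene lay within 1000 bp of 318 of the regions (23%), against 403 of the 4933 other MYC regions (8.17%) and 28 of the 376 at shared ends (7.45%). Most of the other regions lay inside genes or far from them. The share over all single gene ends, with or without MYC, was not computed.

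ATF4, the main transcription factor of the integrated stress response, was rarely found on these regions. An ATF4 peak overlapped 6 and 13 of the 1380 in the activated libraries and 3 and 6 in the control libraries. As shares these are 0.435% and 0.942% in activated cells and 0.217% and 0.435% in control cells. The ATF4 lists held 1270 and 2231 peaks in activated cells and 916 and 1579 in control cells. The part of list length in these counts was not tested. The activated libraries had on average 5 more regions with an ATF4 peak, with a two-sided exact permutation p of 0.667, where 2 libraries against 2 allow no p below 0.333. The groups touch at 6 regions, and within replicate number 1 the difference was 3 and within number 2 it was 7. Of the other 4933 MYC regions 65 and 86 were overlapped in activated cells and 31 and 34 in control cells, or 1.32% and 1.74%, against 0.628% and 0.689%. ATF4 peaks were therefore less frequent at single gene ends than at the other regions in each of the 4 libraries, by values that were not tested over regions.

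The 6 regions overlapped in both activated libraries include genes of amino acid supply. SLC7A11, the cystine carrier, had 6.41 and 11.9 ATF4 tags in activated cells and 5.36 and 5.77 in control cells, beside 9.03 and 14.2 MYC tags. CEBPB, a partner of ATF4, had 7.22 and 12.7 ATF4 tags in activated cells and a peak in control replicate 2 alone, with 5.96 tags. TBL1X had 5.61 and 7.84 ATF4 tags in activated cells and 6.70 and 4.97 in control cells. At SLC7A11 the groups did not overlap, and at TBL1X they did. SLC38A1, a glutamine carrier, NARS1, the cytosolic asparaginyl-tRNA synthetase, and IRAK1BP1 had a peak in both activated libraries and in neither control library. Their ATF4 tags in activated cells were 6.01 and 6.03 at SLC38A1, 4.81 and 6.83 at NARS1, and 5.61 and 3.62 at IRAK1BP1. A site with no listed peak has no value, so no fold is given for these.

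At other genes ATF4 and MYC lay at the same end but apart. At CHAC1, which degrades glutathione, the ATF4 centre lay 417.5 bp from the MYC centre, with 28.5 and 24.3 ATF4 tags in activated cells and 14.3 and 10.3 in control cells. At PSAT1, an enzyme of serine synthesis, at SLC38A2, a neutral amino acid carrier, and at RACK1 the distances were 538, 554.5 and 845 bp. At EIF4EBP1 the distance was 520 bp, with 12 and 19.7 ATF4 tags in activated cells and 10.7 and 10.1 in control cells. CHAC1's groups were far apart and EIF4EBP1's closer.

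In limma's fit over the 105 ATF4 regions that every ATF4 library listed, 39 (37.1%) were higher in activated cells at an adjusted p under 0.05 and 0 (0%) lower, with 57 higher and 0 lower at an unadjusted p under 0.05. None of the 3 that overlapped a MYC region at a single gene end passed: on the log2(tags + 1) scale the change was 0.58 ± 0.27 (SE) at SLC7A11 (adjusted p = 0.0728), 0.43 ± 0.29 at STK40 (adjusted p = 0.216) and 0.17 ± 0.24 at TBL1X (adjusted p = 0.531). STK40, a pseudokinase, had 17.2 and 19.1 ATF4 tags in activated cells and 16.5 and 10.5 in control cells, and its ATF4 region met the MYC region at its edge. CHAC1 was higher in activated cells, by 1.05 ± 0.30 (adjusted p = 0.00904), and EIF4EBP1 by 0.53 ± 0.29 did not pass (adjusted p = 0.125). CHAC1's call was lost without any 1 of the 4 libraries (adjusted p between 0.0872 and 0.216) and when libraries were centred on their median (0.41, adjusted p = 0.322), and no region was called higher in any of these fits. These values cover sites with a peak in every ATF4 library, a small part of the regions where MYC was found.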

How the data were processed

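The study deposited 1 peak list for each of the 6 ATF4 and MYC libraries, called per library; the list of the IgG sample was not analysed here. Per the submitters' processing notes the tools were Bowtie 0.12.9 and HOMER on hg38; settings are not given in the sources used here. Per the file headers, the normalized tag count is a signal, the tags in a peak per 10 M tags of the library. The deposited lists also hold a score, a focus ratio (a fraction), fold values over background and surroundings, and p-values for each peak, which are the authors' own. Total tags are a whole-number count in the deposited replicate 1 lists and a scaled signal in the replicate 2 lists, so the count test planned for that case was not used. Library depth, between 21.0 M and 50.3 M tags, was read from the steps between low values.

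MYC peaks were merged at 1 bp and placed against gene spans of GRCh38.p14, which carry no strand; starts came from RefSeq promoters (1124 regions matched). Motifs were searched on both strands as exact letters. Shares have exact (Clopper-Pearson) 95% intervals. ATF4 signal was compared with limma 3.58.1 with a trend on log2(tags + 1), which understates the change of weak regions, with Benjamini-Hochberg adjustment over the 105 regions; the script was tested on simulated data. The strongest value per library was taken in each region.

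Named regions are the 15 strongest by mean log2(tags + 1), 3 at the median, the 3 weakest, 3 just inside and 3 just outside 1000 bp, the 3 largest and 3 smallest replicate ratios, those with an ATF4 peak in both activated libraries, up to 4 of each gene list and genes with 3 regions. Regions more than 1000 bp from a listed start, in pairs or hosting small nucleolar RNAs were picked with their values in view. So were those with an ATF4 region at the same gene and the further list members named. The result of 1 pathway list is not reported here, though its genes are in the totals over all lists. The regions and the lists were chosen with earlier results of these data known. Python 3.11.15, pandas 2.3.3, SciPy 1.17.1 and R 4.3.3 were used.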

Additional observations from a re-analysis of the deposited data

How the results depend on the processing

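The number of regions at single gene ends ranged over 1676 to 5017 when regions were defined by 1 MYC library (without replicate 2 and without replicate 1), against 1380 with both, and fell to 739 with a fold over background of at least 8. Listed genes with a region then numbered 183 to 337, and 93, against 166. The excess of CACGTG in promoters was 7.94 percentage points over all 1124 matched regions, 10.2 with a window of 500 bp, 5.74 with 2000 bp, and 4.66 to 7.45 with 1 MYC library; the cause was not tested. Leaving out regions under 2-fold over background, an alternative added after the data were seen, left 1378 regions. The ATF4 fit called 39 regions higher; with the replicate block it called 0 (37 at an unadjusted p under 0.05; smallest adjusted p = 0.115), and without any 1 library 0 (24 to 47 unadjusted), the lone library of a group being assumed to vary like the others. Centred on the library median it called 0 higher and 9 lower (2 and 18 unadjusted), the median change over regions moving to -0.11 against 0.54. Centring reversed STK40 (-0.21), SLC7A11 (-0.070), EIF4EBP1 (-0.12) and TBL1X (-0.47), and TBL1X was also reversed without activated replicate 2 (-0.037) and without control replicate 2 (-0.011), its range without 1 library being -0.037 to 0.38. Same-numbered ATF4 libraries shared only a number (correlation of deviations 0.0976); under the block the difference in regions with an ATF4 peak was 5, with 0.5 the smallest p that pairs allow. Over all alternatives to the main results, 30 values were classed as unchanged and 13 as moved. The tag difference was among the unchanged though it was 0 without MYC replicate 2. Depth limits weak regions: replicate 1 listed none under 3.8 tags.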
